A study of Mus musculus with 82 samples.

Results

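The fibrillar collagen genes Col1a1, Col1a2, Col3a1, Col5a1, Col5a2 and Col5a3, together with Postn (periostin) and Sparc, were followed in mouse skin after whole-body x-ray exposure. These 8 of the 18690 named genes on the arrays were covered by 14 of 41174 probes, and all 14 probes passed the filter on dim signals that left 30289 probes in the tests. The members were chosen by values of these arrays. Postn was selected on its mean fall after 20 Gy, the collagens come from a list drawn up by the study on the same arrays, and Sparc comes from a list of fibroblast markers. Every comparison that contains 20 Gy arrays is therefore given as a description without a p-value, and the direction found at lower dosages is not independent evidence.

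Skin was taken repeatedly from the backs of male C57BL/6j mice that had received 1, 3, 6 or 20 Gy to the whole body, and from sham mice that were moved and handled in the same way without exposure. The mice were young adults from 1 inbred strain, and every mouse, sham included, was biopsied and sutured at each visit, so later samples came from animals that already carried healing wounds. Samples are named by the time after exposure: h2 for 2 hours, and d4, d7, d21 and d28 for days. The 82 arrays came from 24 mice and fell into 23 groups of 2 to 5 arrays, with the 20 Gy group ending at d7. Each array carried the biopsy RNA in the Cy5 dye and a universal mouse reference RNA in Cy3, with no dye swap. A value below is the log2 ratio of biopsy over reference after normalization within the array, unless the Cy5 signal alone or the deposited normalized value is named, and a step of 1 is a doubling.

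Collagens I and III form the bulk of the fibrils of the dermis and are made mainly by fibroblasts as procollagen chains, which are modified and folded in the endoplasmic reticulum, secreted, trimmed and cross-linked. Collagen V is built into the same fibrils in small amounts and governs their assembly and diameter. Periostin and SPARC are matricellular proteins: both bind collagen, SPARC takes part in procollagen handling and fibril assembly, and periostin is raised in healing and fibrotic skin.

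Start-site sequences of 3 genes are shown, and the letters let a reader see what lies directly before each start. At h2 after 20 Gy the log2 ratios of Postn lay below sham, those of Col1a2 lay above it and those of Col3a1 (A_51_P515605) overlapped it. A link between the letters and these values was not tested. They are the 100 bases before a RefSeq start in build GRCm38.p6, all on the plus strand, with the single motif match in capitals. Postn has an upstream start, with its window at chr3:54359167-54359266, and a downstream start, with its window at chr3:54361007-54361106. Col1a2 has its window at chr6:4505518-4505617 and Col3a1 at chr1:45311438-45311537.
Postn, upstream start: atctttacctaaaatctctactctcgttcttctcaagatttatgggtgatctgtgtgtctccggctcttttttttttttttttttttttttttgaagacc
Postn, downstream start: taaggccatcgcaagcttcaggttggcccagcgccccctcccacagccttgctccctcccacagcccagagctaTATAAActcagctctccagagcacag
Col1a2: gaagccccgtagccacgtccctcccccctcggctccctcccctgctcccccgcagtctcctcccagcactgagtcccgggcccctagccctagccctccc
Col3a1: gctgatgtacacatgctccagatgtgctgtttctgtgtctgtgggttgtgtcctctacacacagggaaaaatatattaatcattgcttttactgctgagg
The windows were searched on both strands for a TATA motif, with the letters TATAAA, for the box named CCAAT and for a GC box, spelled GGGCGG, each counted separately. The window of the downstream Postn start held the TATA motif, as did 5.56% of 32851 promoters of the same length. The window of the upstream Postn start and those of Col1a2 and Col3a1 held none of the 3 motifs, while the CCAAT box occurred in 18.9% and the GC box in 24.7% of all promoters. The start-site table matched 6 of the 8 genes, and a match describes letters only.

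Several arrays stood apart and touch the values below. All 20 Gy arrays were read on the first of 2 scanners, where the h2 and d4 arrays shared a scan day with 3 of 4 sham arrays and the d7 arrays shared another with 2 of 4 sham arrays. On that second scan day, which held 5 arrays, the Cy3 reference correlated at a median r of 0.989 within the day and 0.825 with all other arrays, against 0.977 among the others. The median Cy5 spot signal was 22 to 26 scanner units on those 5 arrays and 22 to 115 over all 82. The sham h2 array of mouse M002 carried a summed Cy5 level of 412400 over 5 growing hair follicle markers, against 479.4 to 769.7 in the other 3 sham h2 arrays. The label of skin was checked against 6 epidermal markers, of which the 5 with a tested probe (Krt5, Krt14, Krt1, Krt10 and Lor) were well above background on all 82 arrays. Scan day is known only from the scanner files and need not match the day of extraction or labelling.

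At d7 after 20 Gy the collagen I and III chains and both matricellular genes lay far below sham, and the collagen V chains lay below sham by less. Col1a1, which encodes the alpha 1 chain of collagen I (GRCm38.p6 chromosome 11, 94936224 to 94953042), had log2 ratios of 4.91, 3.09, 2.13 and 2.77 in sham mice M001, M005, M002 and M003 and of -1.60, -1.73 and -1.11 in 20 Gy mice M022, M023 and M024 by probe A_52_P525107. The groups did not overlap, and the difference was -4.71 on the log2 scale (SE 0.64). Col1a2, the other collagen I chain (chromosome 6, 4505618 to 4541543), had 6.41, 3.56, 2.24 and 4.23 in sham and -0.57, 0.20 and 0.83 after 20 Gy, a difference of -3.95 (SE 0.78). Col3a1, the single chain of collagen III (chromosome 1, 45311538 to 45349706), had 4.13, 2.76, 3.81 and 4.35 in sham and -2.12, -1.45 and -1.38 after 20 Gy, a difference of -5.42 (SE 0.64). For all 3 genes the highest 20 Gy array was below the lowest sham array. In these bulk biopsies, fewer fibroblasts and less collagen RNA per fibroblast cannot be told apart.

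**Figure D1:**
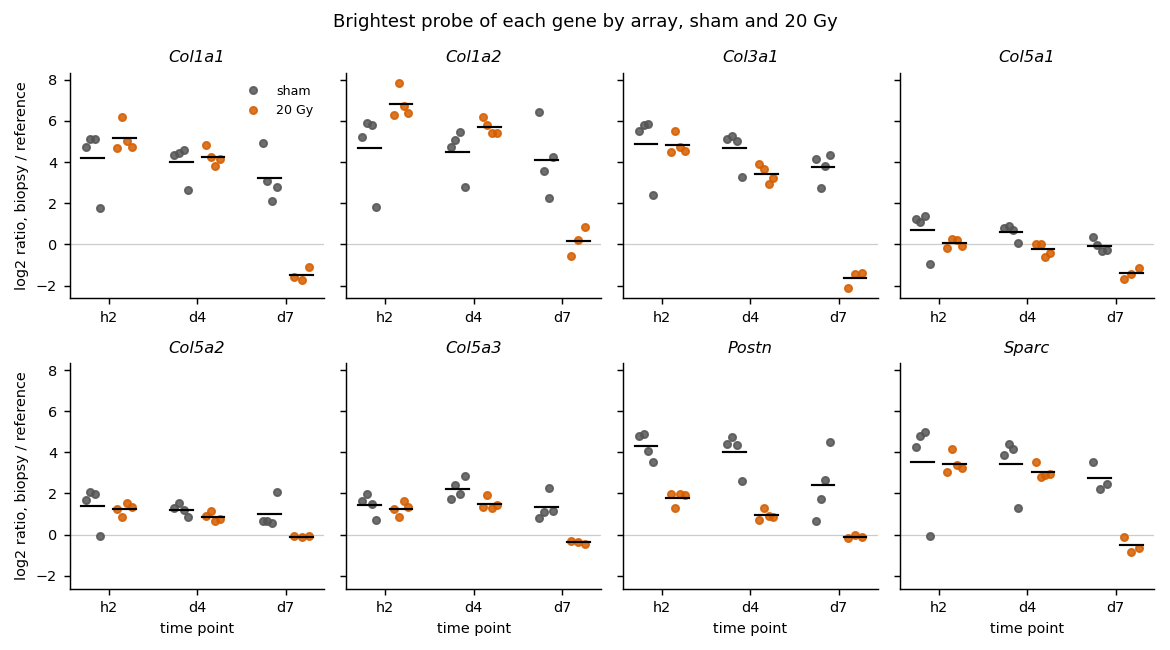
Log2 ratio of biopsy over reference (vertical axis) for the brightest probe of each of the 8 genes at h2, d4 and d7, with 1 point per array for sham (grey) and 20 Gy (orange) and a bar at each group mean. At d7 the 3 20 Gy arrays of Col1a1 lie between -1.73 and -1.11 and those of Col3a1 between -2.12 and -1.38, below every sham array, while Postn is already below every sham array at h2.

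The 3 collagen V chains had smaller differences from sham at d7. Col5a1 (probe A_51_P414637) had 0.35, -0.05, -0.31 and -0.28 in sham and -1.67, -1.42 and -1.14 after 20 Gy, a difference of -1.34 (SE 0.52). Col5a2 had 0.68, 0.68, 0.57 and 2.08 in sham and -0.09, -0.14 and -0.05 after 20 Gy, a difference of -1.09 (SE 0.49). Col5a3 (probe A_51_P241995) had 0.79, 1.11, 2.24 and 1.14 in sham and -0.32, -0.38 and -0.44 after 20 Gy, a difference of -1.70 (SE 0.51). The groups did not overlap for any of these 3 probes, although the sham spread exceeded 1 log2 step for Col5a2 and Col5a3. The second Col5a3 probe, A_52_P503796, was flagged well above background on all 7 arrays but was dim, with an unnormalized Cy5 signal of 25.5, 26, 78 and 87 scanner units in sham and 30, 24 and 26 after 20 Gy. Its groups overlapped, with a difference of -0.05 (SE 0.11).

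Sparc, for which one d7 sham spot (mouse M002) was left out as an outlier of its array, had 3.52, 2.22 and 2.46 in the other sham arrays and -0.10, -0.84 and -0.64 after 20 Gy by probe A_52_P101852, a difference of -3.26 (SE 0.88). Its second probe, A_51_P431087, had 2.28, 1.33, 0.68 and 1.59 in sham and -1.11, -2.76 and -2.36 after 20 Gy, a difference of -3.55 (SE 0.58). Both probes of this collagen-binding protein thus separated the groups in the same direction. Over all 14 probes, 14 were below sham on average at d7 with a median difference of -3.30, and for 13 every 20 Gy array was below every sham array, as for 6.84% of all tested probes. A probe is called here when the fit gives a Benjamini-Hochberg adjusted p below 0.05 and a difference of at least 2-fold: 10 of the 14 were called lower and 0 higher at d7, where 0.624% of all tested probes were called lower and 1.21% higher. Because the members were chosen on 20 Gy values of these arrays, the counts at 20 Gy describe the members and nothing is read from their distance to those shares.

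For the collagen I and III chains and Postn, the d7 values were also lower than those of the rest of the series. For Col1a1 (A_52_P525107), Col1a2, Col3a1 (A_51_P515605) and Postn, 0 of the 71 sham and sublethal arrays of any time point were as low as the highest 20 Gy d7 array. The lowest of those 71 arrays had 1.05 for Col1a1, 1.54 for Col1a2, 1.70 for Col3a1 and 0.45 for Postn, and the first 3 of these values came from 1 array, 3 Gy mouse M014 at d28. Among the collagen V chains the ranges met: 4 of 71 arrays for Col5a1 (A_51_P414637), 7 of 69 for Col5a2 and 1 of 71 for Col5a3 (A_51_P241995) were below the highest 20 Gy d7 array. So was 1 array for Col5a1 A_52_P237371 and for each Sparc probe, and 56 of 71 for the dim Col5a3 probe A_52_P503796.

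One slide held the d7 arrays of 20 Gy mouse M022 and of sham mice M001 and M005, so that these 3 biopsies were hybridised and read together. The unnormalized Cy5 signal of Col1a1 (A_52_P525107) was 532.5 scanner units after 20 Gy and 18134 and 8203 in sham. That of Col1a2 was 3150 against 98390 and 35523, and that of Col3a1 (A_51_P515605) was 160 against 7226.5 and 3356.5. Periostin was read at 25 against 106 and 102. On the log2 ratio scale the differences within the slide were -5.60 for Col1a1, -5.55 for Col1a2, -5.57 for Col3a1 and -1.40 for Postn.

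At h2 after 20 Gy the same probes of Col1a1 and Col3a1 overlapped sham, and the probes of 1 gene differed from each other. Col1a1 (A_52_P525107) had 4.74, 5.13, 5.14 and 1.79 in sham mice M001, M004, M005 and M002 at h2 and 4.67, 6.20, 5.05 and 4.72 in 20 Gy mice M021 to M024. Col3a1 (A_51_P515605) had 5.50, 5.79, 5.84 and 2.42 in sham and 4.50, 5.52, 4.75 and 4.56 after 20 Gy. The groups overlapped for both genes, with differences of 0.96 (SE 0.59) and -0.05 (SE 0.59), and the lowest sham value in each came from mouse M002. Without that array the differences were 0.16 and -0.88.

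Other probes for the same transcripts were far higher than sham at these times. Col1a1 probe A_52_P658611 had 2.11, 3.68, 2.72 and 2.41 in sham and 8.37, 9.09, 8.67 and 8.13 after 20 Gy at h2, a difference of 5.83 (SE 0.93). Col3a1 probe A_52_P684242 had 1.48, 2.38, 1.50 and 1.10 in sham and 7.06, 7.40, 7.78 and 7.33 after 20 Gy, a difference of 5.78 (SE 0.69). Neither probe overlapped between the groups, and at d4 the differences were 4.80 and 4.88. The distance was also in the raw Cy5 signal: A_52_P684242 was read at 283 to 753.5 scanner units in sham h2 arrays and at 1918 to 4348.5 after 20 Gy, whereas A_51_P515605 for the same gene was read at 56028 to 80324 in sham and at 9127 to 17269 after 20 Gy. These signals are not scaled, and the 20 Gy h2 arrays were dimmer as a whole, with a median Cy5 spot of 29.5 to 32.7 scanner units against 46 to 95 in sham. In the brightness order of its own array A_52_P684242 was at rank 177, 97, 131 and 158 after 20 Gy and at rank 8530, 4784, 5718 and 11101 in sham, so its groups did not overlap, while the ranks of A_51_P515605, given below, did. High ranks also occurred without exposure: in sham mice M001, M005, M002 and M003 at d7 A_52_P684242 was at rank 286, 564, 8150 and 5147. A_52_P658611 was at rank 58, 121, 1632 and 432 in them. The M001 and M005 arrays at d7 were read on the second scan day, and the part of the array set in these signals was not tested. Across all arrays the log2 ratios of these 2 probes correlated at r = 0.37 (82 arrays) and those of Col1a1 A_52_P525107 and A_52_P658611 at r = 0.45 (79 arrays), while A_52_P658611 and A_52_P684242, which detect different genes, correlated at r = 0.90 (79 arrays that share reference RNA, slides and scan days, so given as a description).

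**Figure D2:**
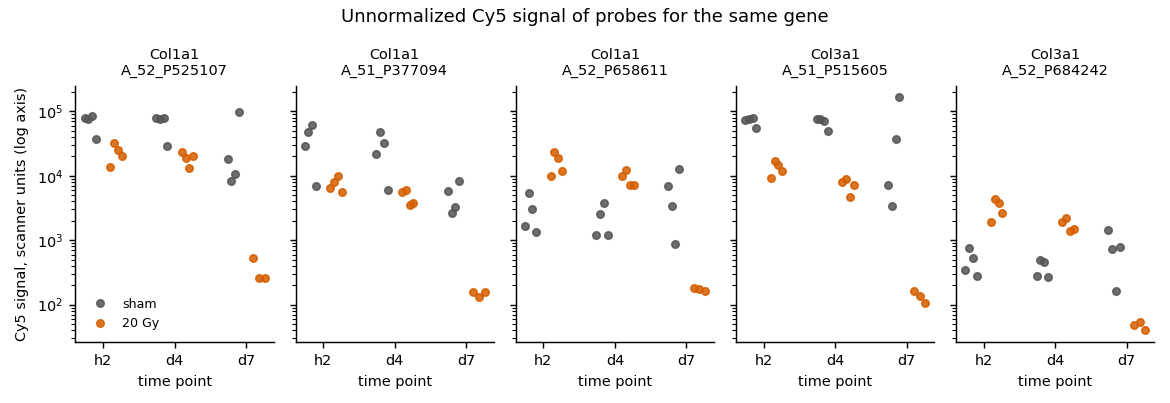
Unnormalized Cy5 signal in scanner units (vertical log axis) of the 3 Col1a1 and 2 Col3a1 probes at h2, d4 and d7, with 1 point per array for sham (grey) and 20 Gy (orange). At h2 and d4 A_52_P658611 and A_52_P684242 are brighter after 20 Gy than in any sham array, while A_52_P525107 and A_51_P515605 are dimmer on this scale, which is not adjusted for the lower brightness of the 20 Gy arrays as a whole, and at d7 all 5 probes are dimmer after 20 Gy than in every sham array. The d7 sham arrays of M002 and M003 came from the other scanner, with median Cy5 spots of 76 and 96. In order within the array A_52_P658611 and A_52_P684242 overlapped sham at d7.

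Counted over the 14 probes at h2, 5 were called higher (background 5.79%) and 1 lower (background 3.33%), 6 were below 0 and the median difference was 0.61. The probes called higher were Col1a1 A_52_P658611 and A_51_P377094 (2.11), Col1a2 (2.12), Col3a1 A_52_P684242 and Col5a1 A_52_P237371 (1.61), and the one called lower was Postn. Without the sham h2 array of M002, 3 were called higher, and the differences were 1.35 for Col1a1 A_51_P377094 and 1.16 for Col1a2. The same 5 probes had every 20 Gy array above every sham array at h2 and below every sham array at d7, as did 0.67% of all tested probes. At d4, 2 were called higher (background 6.09%) and 1 lower (background 5.11%), with a median of 0.14. With the comparison restricted to the first scanner, which is also the scan day of the 20 Gy arrays and leaves out mouse M002, the calls were 4 up and 3 down for h2 and 3 up and 4 down for d4. Under that restriction the probes called lower at both times were Postn, Sparc A_52_P101852 (-1.25 at h2, -1.10 at d4) and Col5a1 A_51_P414637 (-1.17 and -1.03), and at d4 also Col3a1 A_51_P515605 (-1.71).

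Periostin differed from sham at every time point. Postn (chromosome 3, 54359267 to 54391041) had 4.77, 4.87, 4.08 and 3.53 in sham and 1.99, 1.29, 2.00 and 1.90 after 20 Gy at h2. At d4 it had 4.40, 4.74, 4.34 and 2.63 in sham and 0.73, 1.27, 0.93 and 0.86 after 20 Gy. At d7 the values were 0.68, 1.74, 2.68 and 4.51 in sham and -0.18, -0.01 and -0.14 after 20 Gy. In all 3 comparisons every 20 Gy array was below every sham array, and the differences were -2.52 (SE 0.70), -3.08 (SE 0.70) and -2.51 (SE 0.75). At d7 the probe was well above background on 1 of the 3 20 Gy arrays, and the sham mice themselves spread over nearly 4 log2 steps. The difference at d7 was -1.32 within the first scanner and -4.32 with the ratio that the scanner software computed.

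The position of each probe in the brightness order of its own array needs no normalization between arrays and gave the following. Col1a2 was the third brightest of all probes in Cy5 on each of the 8 20 Gy arrays at h2 and d4, and stood at rank 164, 103 and 93 at d7, against ranks 3, 5, 11 and 2 in sham d7 arrays. Col1a1 (A_52_P525107) held ranks 9, 7, 6 and 8 at h2 and 865, 999 and 767 at d7 after 20 Gy, against 14, 41, 147 and 33 in sham at d7. Col3a1 (A_51_P515605) held ranks 24, 13, 20 and 21 at h2, 44, 45, 93 and 72 at d4, and 2920, 2023 and 1996 at d7. The sham ranks of Col3a1 at d4 were 18, 24, 14 and 39. For these collagens the order within the array at h2 overlapped that of sham and at d7 did not, and for Col3a1 it did not overlap at d4 either. For Col1a2 the overlap at h2 rested on mouse M002, with sham ranks of 1, 2, 2 and, in M002, 11.

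Sparc (A_52_P101852) held ranks 68, 35, 45 and 49 at h2 after 20 Gy, against 3, 4, 3 and 218 in sham. Postn held ranks 2212, 2251, 2603 and 2804 at h2, against 514, 509, 569 and 1131 in sham, then 5752, 4444, 5169 and 5517 at d4 and 21701, 16128 and 20775 at d7. In sham mice M001, M005, M002 and M003 at d7 its ranks were 3615, 3729, 1916 and 477, so M001 and M005 stood lower in order than the 20 Gy h2 arrays. By these probes Sparc was lower in order than 3 of 4 sham arrays at h2, and Postn lower than all 4. The other Sparc probe, A_51_P431087, went the other way at h2, with ranks 125, 58, 57 and 51 after 20 Gy against 94, 122, 71 and 891 in sham. Its log2 ratios at h2 were 2.57, 3.87, 3.35 and 3.33 after 20 Gy and 2.88, 2.52, 2.81 and -0.01 in sham, a difference of 1.23 (SE 0.54), and the groups overlapped. Without mouse M002 the difference was 0.55, against -1.25 for A_52_P101852, so the direction of Sparc at h2 depended on the probe.

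**Figure D3:**
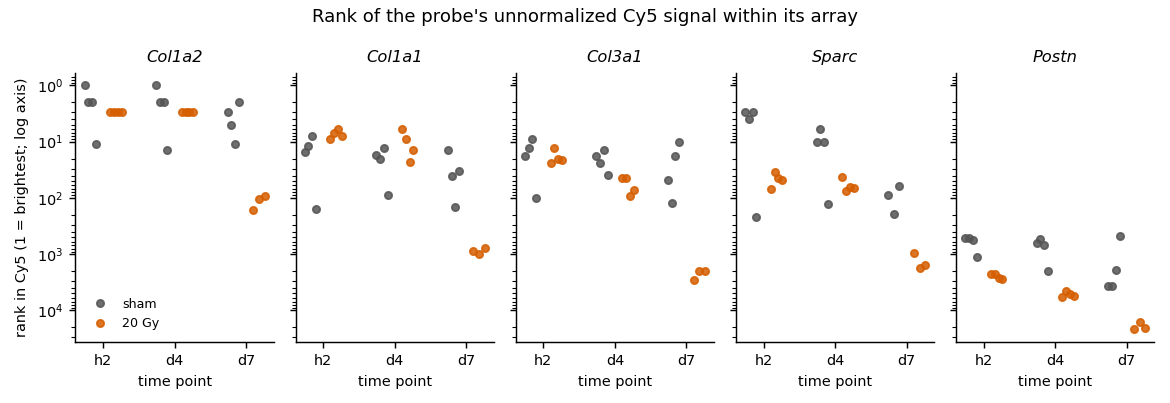
Rank of the unnormalized Cy5 signal of 5 probes among all probes of the same array (vertical log axis, 1 is the brightest and is at the top) at h2, d4 and d7, with 1 point per array for sham (grey) and 20 Gy (orange). Col1a2 is at rank 3 on every 20 Gy array at h2 and d4 and at ranks 93 to 164 at d7, while Postn is at rank 2212 or beyond from h2 on.

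The deposited normalized values placed the 20 Gy collagens in another position at h2 and d4. In them Col1a1 (A_52_P525107) stood at -1.23, -0.47, -0.80 and -1.13 after 20 Gy at h2, and at -1.38, -1.54 and -1.15 at d7. The sham h2 arrays stood at 3.95, 3.74, 4.26 and 2.82, so that the difference at h2 was -4.60 in the deposited values and 0.96 in the log2 ratios computed here. Over the 14 probes 12 were called lower at h2, 11 at d4 and 13 at d7 in the deposited values, and 0 higher at each. Of all tested probes 2.22%, 2.27% and 2.35% were called lower and 1%, 0.832% and 1.03% higher in them.

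The distance between both versions depended on the gene and the time point. For Col1a1 A_52_P658611 the deposited value minus the log2 ratio was -8.70, -8.90, -8.78 and -8.75 at h2 and -8.04, -8.03, -8.04 and -7.99 at d4, but 1.07, 0.14 and 0.05 at d7. For Col1a2 it was -6.89, -7.72, -6.72 and -6.74 at h2 and 0.02, -0.80 and -1.23 at d7. For Postn it was -0.69, 0.13, -0.78 and -0.78 at h2. For both collagen probes it varied by more than 1 log2 step among the 3 mice at d7, less than its change from h2 to d7, and what step produced it was not tested. Over all probes the deposited values and the log2 ratios correlated at r = 0.58 to 0.74 on the 8 20 Gy arrays of h2 and d4, at 0.70 to 0.80 on those of d7 and at 0.60 to 0.97 (median 0.93) on the 71 sham and sublethal arrays. Deposited columns had medians of -0.015 to 0.015, so they were centred per array; whether genes were adjusted across arrays is not given in the sources used here. Periostin was the one gene of the 8 that kept its direction and a difference of more than 1 log2 step at all 3 time points in the log2 ratios, the Cy5 channel and the deposited values. It was chosen for its fall after 20 Gy, so this describes the selection and is no separate support. At d7 it was well above background on 1 of 3 20 Gy arrays and the size of its difference there is uncertain. Its call at h2 was lost with slide as a random block. Low values also occurred without exposure: sham mice M001 and M005 at d7 had log2 ratios of 0.68 and 1.74, within or below the 20 Gy range at h2 (1.29 to 2.00).

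**Figure D4:**
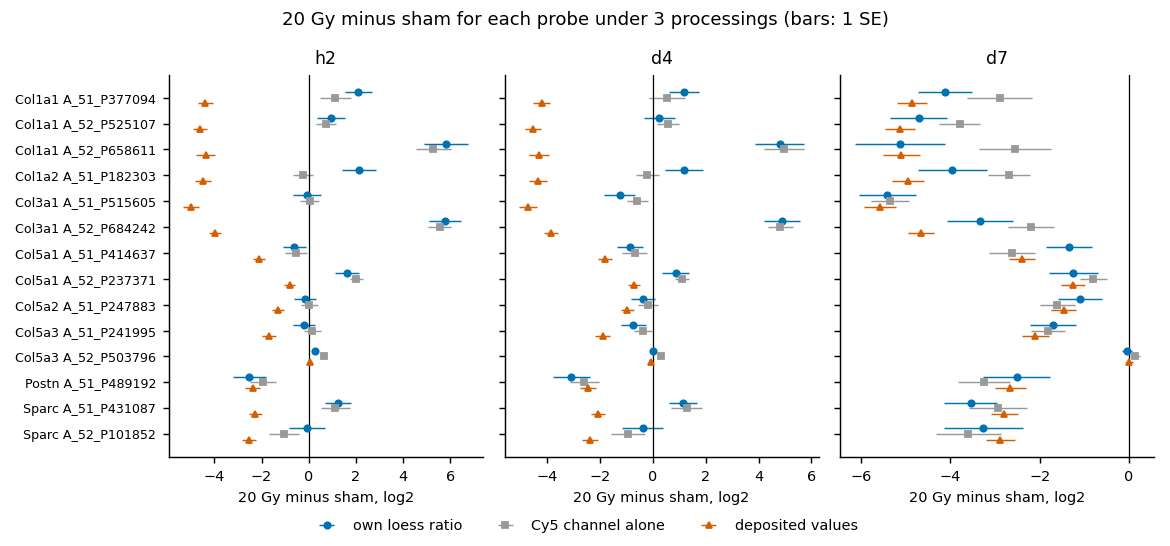
Difference of 20 Gy minus sham on the log2 scale (horizontal axis, bars are 1 SE) for each of the 14 probes at h2, d4 and d7, from the loess ratios computed here (blue circles), the Cy5 channel alone (grey squares) and the deposited values (orange triangles). At h2 Col1a1 A_52_P658611 is at 5.83 and 5.27 in the first pair and at -4.37 in the deposited values, whereas at d7 all of them are below 0 for every probe but Col5a3 A_52_P503796.

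In the Cy5 channel alone, the calls were 3 up and 1 down for h2 (background 5.36% and 3.43%), 3 up and 1 down for d4 (4.04% and 2.82%), and 0 up and 12 down for d7 (3.9% and 3%). At d7 Col3a1 (A_51_P515605) differed by -5.35 (SE 0.43), Col1a1 (A_52_P525107) by -3.80 (SE 0.46), Col1a2 by -2.70 (SE 0.47) and Postn by -3.24 (SE 0.58) in that channel. Col1a2 at h2 was 2.12 above sham as a ratio, 1.16 without the sham h2 array of M002, and -0.24 in Cy5 alone. Median centring, which keeps the reference, also turned it (-1.89), so its direction there depended on the processing. The Cy5 scale sets the distribution of every array equal and takes no account of the reference.

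Genes of the collagen pathway were counted at 20 Gy by their role, with the same background shares as above. Among 20 tested genes of collagen folding and modification, calls numbered 2 up and 1 down at h2, 1 up and 2 down at d4, and 0 up and 1 down at d7. The gene lower at d7 was Serpinh1, which encodes the procollagen chaperone HSP47, at -2.39 in the log2 ratios, -2.79 in Cy5 and -2.67 in the deposited values. Plod2, a lysyl hydroxylase that prepares collagen for cross-linking, was higher at h2 (1.76) and d4 (2.35). Of 10 genes for procollagen trimming and cross-linking, 0 were called at h2 and d4 and 1 was lower at d7, Pcolce (-1.98), an enhancer of the protease that removes the procollagen C-propeptide.

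Of 14 genes for proteins that coat or accompany fibrils, 1 went up and 1 down at h2, 0 and 3 at d4, and 0 and 1 at d7. The gene called at d7 was Lum (-4.38), encoding the fibril-binding proteoglycan lumican, while the median of the list was -0.78, with 10 of 14 below 0. Dcn, which encodes decorin, a related proteoglycan of dermal fibrils, stood at 0.56 and was not called. Of 12 genes for collagen breakdown, 1 went up and 3 down at h2, 1 and 1 at d4, and 0 and 1 at d7, with the collagenolytic protease gene Mmp3 at -2.46 on d7. Of 14 genes of TGF-beta signalling, the main inducer of collagen transcription in fibroblasts, 1 went up and 3 down at h2 and again at d4, against 1 and 0 at d7. Ccn2, a TGF-beta target gene that encodes a matricellular protein, was at -2.47 on h2 and -1.43 on d4, while the receptor gene Tgfbr2 was at -1.84, -1.83 and 1.40 on the 3 time points. The other fibrillar collagen genes (Col2a1, Col11a1, Col11a2, Col24a1 and Col27a1) had 0 of 5 called at each time point, and the 7 tested collagen receptor genes had 1 called, Lair1 at d4 (1.12). In the Cy5 channel the d7 counts called lower were larger in 3 of these lists, with 6 of 20 folding genes, 4 of 10 processing genes and 5 of 14 fibril-associated genes.

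Marker lists of the cells in the biopsy were read beside these values, and several differed in level from sham. The summed Cy5 level of 6 fibroblast markers was 51010, 55940 and 57980 on the 20 Gy d7 arrays and 34850 to 132700 on the 4 sham d7 arrays, so the ranges overlapped. Within that list Lum and Thy1 (-1.33) were called lower at d7, while Pdgfra stood at 0.45, Dpt at -1.87 and Pi16 at -1.09. All 6 were well above background on all 82 arrays. The sum of 4 smooth muscle and myofibroblast markers was 7705 to 8908 after 20 Gy and 4310 to 16730 in sham, with 0 of 4 called. Adipocyte markers summed to 3989 to 19640 after 20 Gy and 25510 to 107100 in sham, with 2 of 5 called lower, and 4 macrophage markers to 3312 to 5421 and 3471 to 43750, with 0 of 4 called. Epidermal markers summed to 45450 to 63460 and 52460 to 115800, with 2 of 5 called lower. Erythroid markers summed to 1822 to 3315 after 20 Gy and 3488 to 38050 in sham, with 0 of 5 called, so that the adipocyte and erythroid sums were the ones that did not overlap at d7. At h2 the sums that did not overlap were those of epidermal markers (59650 to 64400 after 20 Gy, 85460 to 127200 in sham) and of smooth muscle and myofibroblast markers (9087 to 10300, 4433 to 8103). At d4 they were those of skeletal muscle (32980 to 114000, 152500 to 365900), endothelial (733.9 to 889.1, 998.2 to 1438) and erythroid markers (1642 to 2206, 3562 to 7341), all lower after 20 Gy, and of growing hair follicle markers (815.4 to 2669, 712.5 to 803), which were higher. The follicle sums lie near the floor: Krt25, Krt27, Krt71 and Krt35 were well above background on 23, 54, 56 and 49 of the 82 arrays. The part of these cell types in the collagen values was not tested.

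At the sublethal dosages of 1, 3 and 6 Gy the mean levels of the members overlapped those of sham. Group means over 15 dosage and time combinations ran from 2.02 to 4.55 for Col1a1 (A_52_P525107), against 2.70 to 4.66 over the 5 sham groups. For Col1a2 they ran from 2.55 to 5.20, against 3.65 at the lowest of the sham groups, and for Col3a1 (A_51_P515605) from 2.65 to 5.42 against 3.76 to 4.89. Postn group means ran from 0.92, in 1 Gy at d7, to 4.49, in 3 Gy at h2, against 2.40 to 4.94 in sham.

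**Figure D5:**
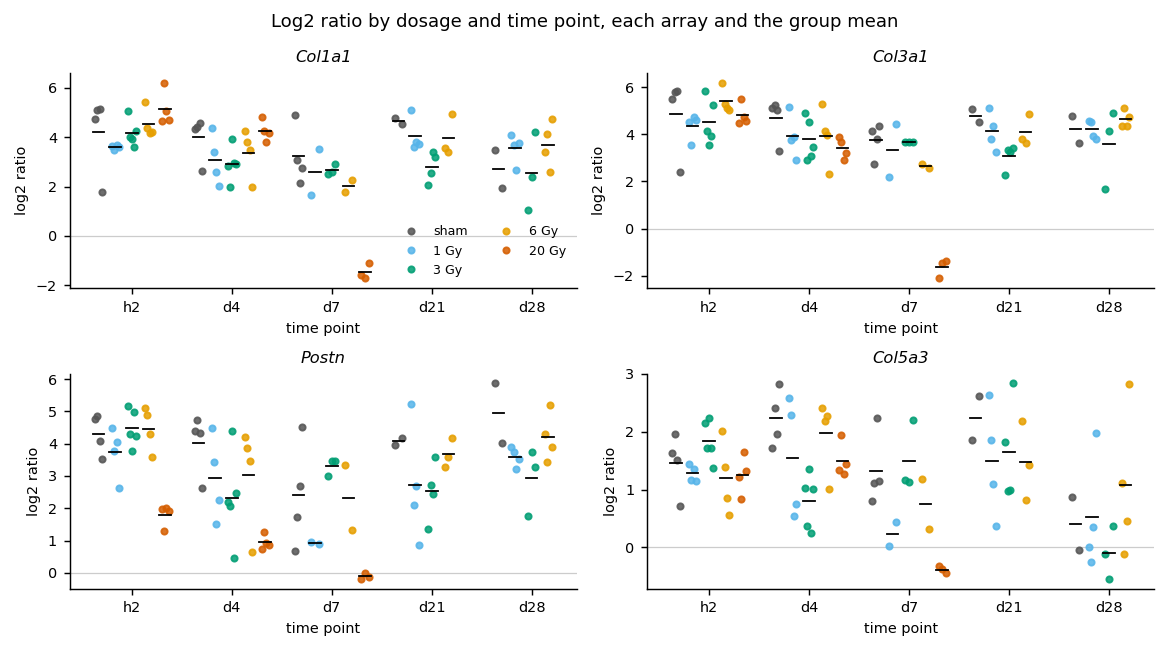
Log2 ratio of biopsy over reference (vertical axis) for 1 probe each of Col1a1, Col3a1, Postn and Col5a3 by time point (h2 to d28) and dosage, with 1 point per array and a bar at the group mean. The sublethal groups spread over the sham range, with Col1a1 means from 2.02 to 4.55, and the 20 Gy d7 arrays are the only ones below 0 for Col1a1, Col3a1 and Postn.

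Over the 210 pairs of a probe and a sublethal comparison, limma called 1 lower and 0 higher, while an unadjusted p below 0.05 was reached by 19 lower and 0 higher pairs. Pooled over the same comparisons, 0.227% of all tests were called lower and 0.131% higher. In 31 of the 210 pairs every irradiated array was below every sham array, and in 1 pair above, against 5.46% and 5.01% of all tests pooled. In the deposited values the counts were more even, with 38 pairs below and 20 above (7.22% and 7.16% of all tests), and an unadjusted p below 0.05 for 36 lower and 32 higher pairs. The called probe was Col5a3 A_51_P241995 at 3 Gy d4, with 1.03, 0.38, 1.35, 0.24 and 1.00 in mice M011 to M015 and 1.71, 2.41, 1.95 and 2.83 in sham. Every 3 Gy array was below every sham array, and the difference was -1.42 (SE 0.44; limma adjusted p = 0.0255), in a comparison where 3.34% of all probes were called lower and 1.92% higher. The second Col5a3 probe was well above background on 3 of 5 arrays at 3 Gy and 1 of 4 in sham, and its difference of -0.21 was not called. Of these arrays 1 of 5 at 3 Gy and 3 of 4 in sham were read on the first scanner. The difference was -0.99 within the first scanner and -2.08 within the second, each with 1 array in 1 of its groups. With scanner as a block it was -1.24 and not called, so dosage and scanner are only partly separated. The call was also lost without any one of the sham d4 arrays or without 3 Gy mouse M012 or M014, with differences of -1.22 to -1.60.

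All 14 probes were below sham on average at 3 Gy d4 (median -0.88), 1 Gy d7 (-0.90) and 3 Gy d28 (-0.76), where 56.7%, 50.8% and 50.8% of all tested probes were below 0. In Cy5 alone 9, 14 and 14 of the probes were below sham (medians -0.36, -0.52 and -0.67), and in the deposited values 5, 11 and 14 (medians 0.086, -0.26 and -0.50), so the direction at 3 Gy d4 turned with the processing. Over all 210 pairs 161 were below 0 in the log2 ratios and 113 in the deposited values. Of these 3 comparisons, 1 Gy d7 and 3 Gy d28 rest on 2 arrays in 1 of their groups and held 0 called members. The 3 Gy d28 values rested in part on mouse M014, whose fibroblast markers summed to 3782 against 103500 and 96290 in the other 2 arrays of the group and whose growing hair follicle markers summed to 247200 against 2100 and 1204. Without it, 9 of 14 probes were below sham with a median of -0.41, and the part of these markers was not tested. At 3 Gy d4 Postn had a lowest value of 0.45, a median of 2.20 and a highest of 4.39, against 4.40, 4.74, 4.34 and 2.63 in sham. The groups overlapped, and its difference of -1.71 (SE 0.66) did not pass (limma adjusted p = 0.0603). The highest median was at 6 Gy h2 (0.38), where 3 of 14 probes were below 0.

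Cy5 alone and the deposited values called other members. In Cy5 alone Col1a1 A_52_P658611 (-3.12, SE 0.81, limma adjusted p = 0.0123) and Col3a1 A_52_P684242 (-2.58, SE 0.52, limma adjusted p = 0.00335) were lower at 3 Gy d7, and the latter also at 6 Gy d7 (-2.32, SE 0.59, limma adjusted p = 0.0326). The background there was 0.932% lower at 3 Gy d7 and 0.39% at 6 Gy d7. These are the probes that were brighter after 20 Gy at h2, and none of the irradiated arrays at d7 in these comparisons was on the scanner of sham mice M001 and M005. In the deposited values 6 probes were called higher, 2 each at 1 Gy d4 (background 0.713%), 6 Gy h2 (0.31%) and 6 Gy d4 (0.631%), and 4 lower at 3 Gy d21 (0.119%), among them Col3a1 A_51_P515605 (-1.71, SE 0.41, limma adjusted p = 0.0246) and Col1a2 (-1.48, SE 0.41, limma adjusted p = 0.0486). In the log2 ratios the same 2 probes differed by -1.73 (limma adjusted p = 0.612) and -1.78 (limma adjusted p = 0.728) at 3 Gy d21.

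Among pathway genes at sublethal dosages, calls in the log2 ratios were made at 3 Gy d4 alone, the comparison in which 3.34% of all probes were called lower and 1.92% higher, against 0.227% and 0.131% over all sublethal tests. Plod2 was higher by 2.21 (SE 0.55, limma adjusted p = 0.0149). Lower were Tnxb (-2.67), Sparcl1 (-1.89), Tgfbi (-1.86), the collagen receptor gene Itga11 (-1.61) and Timp3 (-1.06), with limma adjusted p from 0.0221 to 0.0439. In Cy5 alone and in the deposited values none of these 6 was called. The deposited values had Plod2 at 0.08, Tnxb at -0.11, Sparcl1 at -0.16, Itga11 at -0.87 and Timp3 at -0.61, and Tgfbi turned to 0.52. Markers moved in the same comparison: 3 of 4 endothelial, 2 of 4 smooth muscle and myofibroblast and 2 of 5 erythroid markers were called lower there, and their part in the collagen values was not tested. None of these markers was called in Cy5 alone or in the deposited values, where Cnn1 turned to 0.24.

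Sham mice carried repeated biopsies and were followed over time. Time in sham was only partly separated from scanner and scan day, so it does not show the procedure alone. On the first scanner were 3 of 4 arrays at h2, 2 of 4 at d7 and 0 of 2 at d21 and at d28. Against sham h2, limma called 1 of 56 pairs of a probe and a time point higher and 0 lower in the log2 ratios, while 3 higher and 3 lower pairs had an unadjusted p below 0.05. It was Col1a1 A_52_P658611 at d28, with 5.87 and 7.88 against 2.11, 3.68, 2.72 and 2.41 at h2, a difference of 4.14 (SE 1.14, limma adjusted p = 0.0258; background 1.31% higher). Both d28 arrays were above every h2 array, but A_52_P525107 for the same gene was at -1.50 (limma adjusted p = 0.204). Both d28 arrays were read on the second scanner and 3 of 4 h2 arrays on the first, and with scanner as a block the difference was 3.27 and not called. It was also not called without the h2 array of M001 or the d28 array of M003, nor with the mouse as a fixed replicate block (3.04). Among pathway genes Ccn2 (-3.30, limma adjusted p = 0.0118), Mmp14 (-2.28, limma adjusted p = 0.0268), a membrane collagenase, and Smad7 (-1.03, limma adjusted p = 0.027), an inhibitor of TGF-beta signalling, were lower at sham d28, where 1.41% of all probes were called lower. The values were -3.05, -2.20 and -0.50 in Cy5 alone and -0.96, -0.37 and -1.08 in the deposited values. Of these genes Ccn2 alone was called in Cy5 alone and Smad7 alone in the deposited values.

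Postn in sham had a lowest value of 3.53 and a highest of 4.87 at h2, spread from 0.68 to 4.51 at d7, and was 5.87 and 4.01 at d28. Its fall from h2 to d7 was not called in the log2 ratios (-1.91, SE 0.70, limma adjusted p = 0.162) and was called in Cy5 alone (-1.53, SE 0.54, limma adjusted p = 0.0307; background 0.72% lower). The other calls in Cy5 alone were at d7 as well, where 2 further probes were lower, Col5a1 A_51_P414637 and Sparc A_52_P101852, and 3 higher, Col1a1 A_52_P658611, Col3a1 A_52_P684242 and Col5a1 A_52_P237371 (background 1.87% higher). The probes for Col5a1 thus were called in opposite directions. At d7 the arrays of M001 and M005 were read on the second scan day, those of M002 and M003 on the other scanner. In Cy5 alone Postn was 9.27 and 9.22 in the former and 10.09 and 12.21 in the latter. Col3a1 A_52_P684242 was 12.96 and 12.01 against 8.11 and 8.78. Time and scan day are only partly separated in these calls. In the deposited values 8 probes were called higher at d21 (background 1.68%) and 3 at d28 (background 2.12%), Postn at d28 by 1.68 (SE 0.39, limma adjusted p = 0.000745). With the sham group spreading this far over time and processing, the comparisons above each used the sham arrays of the same time point.

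The genes whose pattern was most like the members' were found from 15737 genes, as the correlation of their group means with the mean of the 8 genes over 23 groups that share mice and scan days. Rcn3, encoding a calcium-binding protein of the endoplasmic reticulum, led with r = 0.955, followed by Serpinf1 (0.948), C1qtnf6 (0.904), Cd248 (0.882), a surface protein of stromal fibroblasts, and Kazald1 (0.876). In these log2 ratios 3 genes outside the list reached 0.9. Among the members Col1a1 (0.951), Col3a1 (0.938) and Col5a1 (0.903) were nearest the shared mean, of which each is itself a part, and Col5a3 (0.747) and Postn (0.705) were farthest from it. The order depended on the processing: in the deposited values Postn had r = 0.927, above Col5a2 (0.902), and Igfbp5 (0.954) and Cd74 (0.929) stood above Serpinf1 (0.896), while Rcn3 (0.963) and C1qtnf6 (0.917) stayed above 0.9.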

How the data were processed

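Skin biopsy RNA (Cy5) and universal mouse reference RNA (Cy3) were hybridised by the authors to Agilent 4x44K arrays. The deposited scanner files, made per the file headers with Feature Extraction 11.0.1.1 on the first scanner and 10.10.1.1 on the second, hold spot intensity per channel. The deposited table of normalized log2 ratios matched 41174 of its 41267 entries to a probe. Its values rose and fell with the red over green ratio, so its direction was settled, and its steps beyond that are not given in the sources used here. The deposited log10 ratio of the scanner software served as an alternative after conversion to log2.

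Median spot signals were background-corrected (normexp, offset 50) and loess-normalized within each array in limma 3.58.1 (R 4.3.3), with control spots at weight 0. Outlier spots (0.704% of values) were left out and spots of 1 probe averaged. The Cy5 channel was taken after quantile normalization. Of 41174 probes 30289 were tested, those with a Cy5 spot well above background in 50% or more of 1 group's arrays. A linear model over the 23 groups was fitted with lmFit and eBayes, without the mouse as a block, and p-values were Benjamini-Hochberg adjusted over all tested probes. The brightest probe represents a gene. No 2 arrays had opposed ratios (lowest r 0.28). Gene names come from probe accessions matched to RefSeq (67.0% of probes). Precision is limited by the number of arrays. The methods ran on simulated data first.

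All 14 probes of the 8 genes were named, as were pathway and marker genes that were called or that define a list, except for a result that is not reported here. The members and lists were chosen with earlier results of these data known. The alternatives were the deposited values, the scanner software ratio, median centring, no background correction, Cy5 scaled to its 75th percentile, no filter, no saturated spots, scanner, scan day, slide or mouse as a block, 1 scanner alone, the compared groups alone, and each array left out.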

Additional observations from a re-analysis of the deposited data

Results flagged for a closer look

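Of 116 sets of 4 or 5 arrays checked for a single array far from its group by Dixon's test, 18 had one, where chance gives about 1 in 20. Sham mouse M002 accounted for 8 of them: at h2 Col1a1 A_52_P525107 was 1.79, Col1a2 1.82, Col3a1 A_51_P515605 2.42, Col5a1 A_51_P414637 -0.97 and Sparc A_52_P101852 -0.056. Its d4 array had 2.64, 3.30 and 1.30 for Col1a1, Col3a1 and Sparc. M002 was the 1 sham mouse read on the second scanner at these times, and its h2 biopsy carried the growing hair follicle markers given above; their part was not tested. Without that array 3 probes rather than 5 were called higher at h2 after 20 Gy.

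Arrays from the first scanner stood out in groups otherwise read on the second. Mouse M010 (1 Gy h2) had 4.39 for Col1a2 and 3.25 for Sparc A_52_P101852, and M011 (3 Gy h2) had 4.52 for Sparc. M017 (6 Gy) had 5.43 for Col1a1 A_52_P525107 and 5.10 for Sparc at h2, and 4.49 for Sparc at d4. The remaining ones were Col1a1 A_52_P525107 at 5.10 in 1 Gy mouse M006 at d21, Col5a2 at 2.08 in sham mouse M003 at d7, Col5a3 A_51_P241995 at 1.01 in 6 Gy mouse M018 at d4, and Postn at 1.29 in 20 Gy mouse M022 at h2.

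For 5 probes every 20 Gy array was above every sham array at h2 and below every sham array at d7, as for 0.67% of all tested probes. The difference from sham changed between these times by -6.22 for Col1a1 A_51_P377094, -10.97 for Col1a1 A_52_P658611, -6.07 for Col1a2, -9.11 for Col3a1 A_52_P684242 and -2.85 for Col5a1 A_52_P237371. This change was not tested, and in the deposited values all 5 were below sham at both times.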

How the results depend on the processing

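The 10 probes called lower at d7 after 20 Gy ranged from 7 to 10 when single arrays were left out and fell to 5 with Cy5 scaled to its 75th percentile. At h2 the 1 probe called lower became 12 in the deposited values, 8 with median centring, 3 with Cy5 at the 75th percentile, 3 on scanner 1 alone and 0 with slide as a random block, and was 1 to 1 with single arrays left out. The 5 called higher at h2 became 0 in the deposited values, 2 with median centring, and 3 each in Cy5 quantiles, with the slide block and with the compared groups alone (3 to 5 with single arrays left out, 3 without sham M002). At d4 the 1 lower became 11 in the deposited values, 2 with the software ratio, 5 with median centring, 4 with Cy5 at the 75th percentile, 3 with scanner or scan day as a block, 4 on scanner 1 alone and 2 with the compared groups alone (1 to 2 with single arrays left out, 2 without sham M002). The 2 higher at d4 became 0 in the deposited values and 4 with Cy5 at the 75th percentile (2 to 2 with single arrays left out).

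The 1 sublethal call lower became 4 in the deposited values, 3 in Cy5 quantiles and 5 at the Cy5 75th percentile. It was 0 with the software ratio, median centring, no background correction, scanner or scan day as a block and scanner 2 alone (0 to 4 with single arrays left out: 4 without sham d4 M002 or 3 Gy d4 M013). The 0 sublethal calls higher became 6 in the deposited values and 1 at the Cy5 75th percentile (0 to 0 with single arrays left out). The 1 sham call over time became 11 in the deposited values, 3 with the software ratio, 6 in Cy5 quantiles and 6 at the 75th percentile, and 0 with scanner, scan day or slide as a block, on scanner 2 alone and with the mouse as a fixed replicate block (0 to 3 with single arrays left out: 0 without h2 M001 or d28 M003, 3 without h2 M002). Scan day as a block was chosen after seeing the data. On scanner 2 alone mouse M002 was the 1 sham array at h2 and at d4, so a call lost there says little. With the mouse as a random replicate block (correlation 0.119) the counts were 5 higher and 1 lower at h2, 2 and 1 at d4, 10 lower at d7, 1 sublethal and 1 sham, and these were the same calls of the same probes as without the block, so the pairing changed no other call.

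Among the probes called in the log2 ratios, directions turned at h2 in the deposited values for Col1a1 A_51_P377094 (-4.37), Col1a1 A_52_P658611 (-4.37), Col1a2 (-4.47), Col3a1 A_52_P684242 (-3.97) and Col5a1 A_52_P237371 (-0.81), and at d4 for Col1a1 A_52_P658611 (-4.31) and Col3a1 A_52_P684242 (-3.86). Probes that were not called turned too, at h2 for example Col1a1 A_52_P525107 (-4.60) and Sparc A_51_P431087 (-2.26), and at d4 Col1a1 A_51_P377094 (-4.20) and Col1a2 (-4.35). With median centring Col1a1 A_51_P377094 (-1.13) and Col1a2 (-1.89) turned at h2, as did A_51_P377094 at the Cy5 75th percentile (-0.12) and Col1a2 in Cy5 quantiles (-0.24). Median centring moved the median of all probes by -0.56 at h2 and -0.41 at d4 and the 75th percentile by 0.72 at h2; over all probes 0.274% were called higher and 36.6% lower at h2 with the former and 39.5% and 12.9% with the latter, against 5.79% and 3.33%. The cause was not tested. Postn was well above background on 1 of 3 arrays at d7 after 20 Gy, which limits its value there.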
